A study of Mus musculus with 4 samples.

Results

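Cytosolic ribosomal proteins build the 2 subunits of the ribosome that translates nuclear-encoded mRNAs. Their genes were taken by symbol: protein-coding genes named Rpl or Rps with a number, together with the stalk genes Rplp0, Rplp1 and Rplp2 and the small-subunit gene Rpsa. S6 kinases and pseudogenes were left out. The rule took 81 of 21631 protein-coding genes on the autosomes and X, and used no measured value. Of these, 76 encode ribosomal proteins of the standard ribosome and 5 are paralogs (Rps27l, Rpl3l, Rpl10l, Rpl39l and Rpl32l). Accessible chromatin was measured by ATAC-Seq, in which a transposase cuts open DNA and the stretches with many cuts are called as peaks. Bone marrow cells sorted from control and Cpt1a-KO mice gave 2 libraries of each genotype. The labels call the cells ltHSC (long-term hematopoietic stem cells) and the controls WT, whereas the study describes HSPCs (hematopoietic stem and progenitor cells) and Cpt1a fl/fl controls. In the KO mice the floxed Cpt1a alleles were deleted by Vav1-Cre, which acts across hematopoietic cells and not in stem cells alone. All mice were adults on a C57BL/6, CD45.2 background. Cpt1a encodes the enzyme that commits long-chain fatty acids to import into mitochondria. Adult mice of both sexes were used in the study, and the sex of each library was not given. Nothing in the labels said whether the libraries of a genotype came from separate mice, so the p-values below measure the spread between libraries, which may be technical.

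Cells need the ribosomal proteins in nearly equal amounts, and their genes are among the most actively transcribed in dividing cells. The transcripts of many of them begin with a C followed by a run of pyrimidines, the terminal oligopyrimidine (TOP) tract, through which the mTORC1 pathway adjusts their translation. Hematopoietic stem cells translate at a low rate, and loss of a single copy of several of these genes causes Diamond-Blackfan anemia, a failure of red cell production.

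The starts of these genes are shown first, since the accessible regions described below lay over them. RefSeq listed a start for 61 of the 81 genes, and 20 had no entry in the promoter table. The 6 stretches printed run from 70 bases before the listed start to the 30 bases that begin with it, on the gene's own strand (RefSeq sequence, build GRCm38.p6). They were chosen to show the tract at the start and the promoters of genes whose rank differed most steadily between genotypes or stood highest. Capitals mark the tract at the listed start and any match, on either strand, to one of 6 motifs. CCGGAAG is bound by ETS factors such as GABP, and AAGATGG by YY1. CACGTG is the E-box, which binds factors such as Myc, and GGGCGG is bound by Sp1 and KLF factors. The TATA box was searched as TATAAA, and the last motif was CTTTCCG. Rpl15, a large-subunit gene mutated in Diamond-Blackfan anemia, has a CCGGAAG match and a tract of 13 bases (chr14:18270957-18271056, minus strand). Rps15a, a small-subunit gene, has a tract of 8 bases that overlaps a match to AAGATGG on the other strand (chr7:118116118-118116217, minus strand). Rplp2, which encodes an acidic protein of the stalk that recruits elongation factors, has a tract of 5 bases and a GGGCGG match on the other strand (chr7:141447581-141447680, plus strand). Rps6, whose protein is phosphorylated by the S6 kinases, has a tract of 9 bases (chr4:86857338-86857437, minus strand). Rpl19, a large-subunit gene, has no tract at its listed start but matches to CCGGAAG, on the other strand, and to CACGTG (chr11:98026640-98026739, plus strand). Rpl37, a large-subunit gene, has no tract at its listed start and matches to CCGGAAG and GGGCGG (chr15:5116543-5116642, plus strand).
Rpl15: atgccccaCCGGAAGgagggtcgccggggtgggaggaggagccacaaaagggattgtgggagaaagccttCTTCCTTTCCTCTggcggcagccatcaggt
Rps15a: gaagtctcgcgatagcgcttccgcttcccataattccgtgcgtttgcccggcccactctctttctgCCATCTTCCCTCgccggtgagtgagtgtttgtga
Rplp2: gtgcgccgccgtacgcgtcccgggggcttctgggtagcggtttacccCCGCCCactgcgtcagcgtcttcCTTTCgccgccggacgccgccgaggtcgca
Rps6: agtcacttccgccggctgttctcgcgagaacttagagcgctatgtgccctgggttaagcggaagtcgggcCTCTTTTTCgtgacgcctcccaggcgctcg
Rpl19: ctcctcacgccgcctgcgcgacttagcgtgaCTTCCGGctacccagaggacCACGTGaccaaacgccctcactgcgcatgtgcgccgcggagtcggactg
Rpl37: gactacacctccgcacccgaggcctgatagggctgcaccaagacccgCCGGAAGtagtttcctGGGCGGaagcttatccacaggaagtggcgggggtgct

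The 4 deposited peak lists held 240940 to 277594 summits (a summit is the point of highest signal in a peak), with no read counts, so the depth of each library is unknown. Intervals of the 4 lists that shared at least 1 bp were merged, which gave 337776 regions, of which 80271 held a peak in all 4 libraries. The intervals of the control libraries covered 52.88 and 48.894 Mb, and those of the KO libraries 42.577 and 44.35 Mb. Among stem and progenitor markers (Kit, Procr, Slamf1, Mecom, Hlf, Gata2, Meis1, Fgd5 and Cd34), 9 of 9 had a region in all 4 libraries, with a median percentile of 95.6. Markers of other lineages were not absent: 4 of 6 T cell, 5 of 5 B cell, 3 of 5 erythroid, 4 of 5 granulocyte and 4 of 6 non-blood markers had one, with medians of 93.1, 73.5, 94.6, 65.2 and 82.1. Hba-a1, Cd8a and Ins2 had a peak in only 1 library and Alas2 in none. The targeted gene, Cpt1a, had its strongest region in all 4 libraries (percentiles of 94.8 and 94.0 in control, 95.3 and 95.9 in KO), and a peak list does not show whether the floxed exons were deleted.

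Nearly all of these genes lay in open chromatin in every library, and their regions were among the strongest of each list. For each gene the lead region was the one, within the gene body or 1000 bp on either side, with the highest mean percentile over the libraries. The percentile is the place of the region's strongest summit, by −log10 p, among all intervals of the same library. A lead region was held by all 4 libraries for 78 of the 81 genes (96.3%), against 76.4% of all protein-coding genes, and for 76 of the 76 standard ribosomal protein genes. The median percentile of the 78 was 98.4 in control 1, 98.1 in control 2, 98.6 in KO 1 and 98.3 in KO 2. For the lead regions of all protein-coding genes it was 95.4, 94.8, 95.8 and 95.3 in the same order. The medians of the KO libraries lay on both sides of that of control 1, so the genotypes overlapped. Lead regions had a percentile of at least 95 on average for 77 of the 78 genes and of at least 99 for 20.

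The 3 genes without any region were paralogs. Rpl10l and Rpl39l, copies expressed mainly in the testis, had no peak in any library, and nor did Rpl32l. Rps27l, a paralog that p53 induces, had a strong lead region at its start, with percentiles of 99.6 and 98.8 in control and 99.1 and 97.8 in KO. The lead region assigned to Rpl3l, the striated muscle copy of Rpl3, lay beyond the gene over the listed start of Msrb1. The one region inside the Rpl3l gene body was weak, at percentiles of 11.4 and 52.3 in control and 47.2 and 20.01 in KO. Of the 5 paralogs, Rps27l was the 1 with a region over its listed start.

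**Figure D1:**
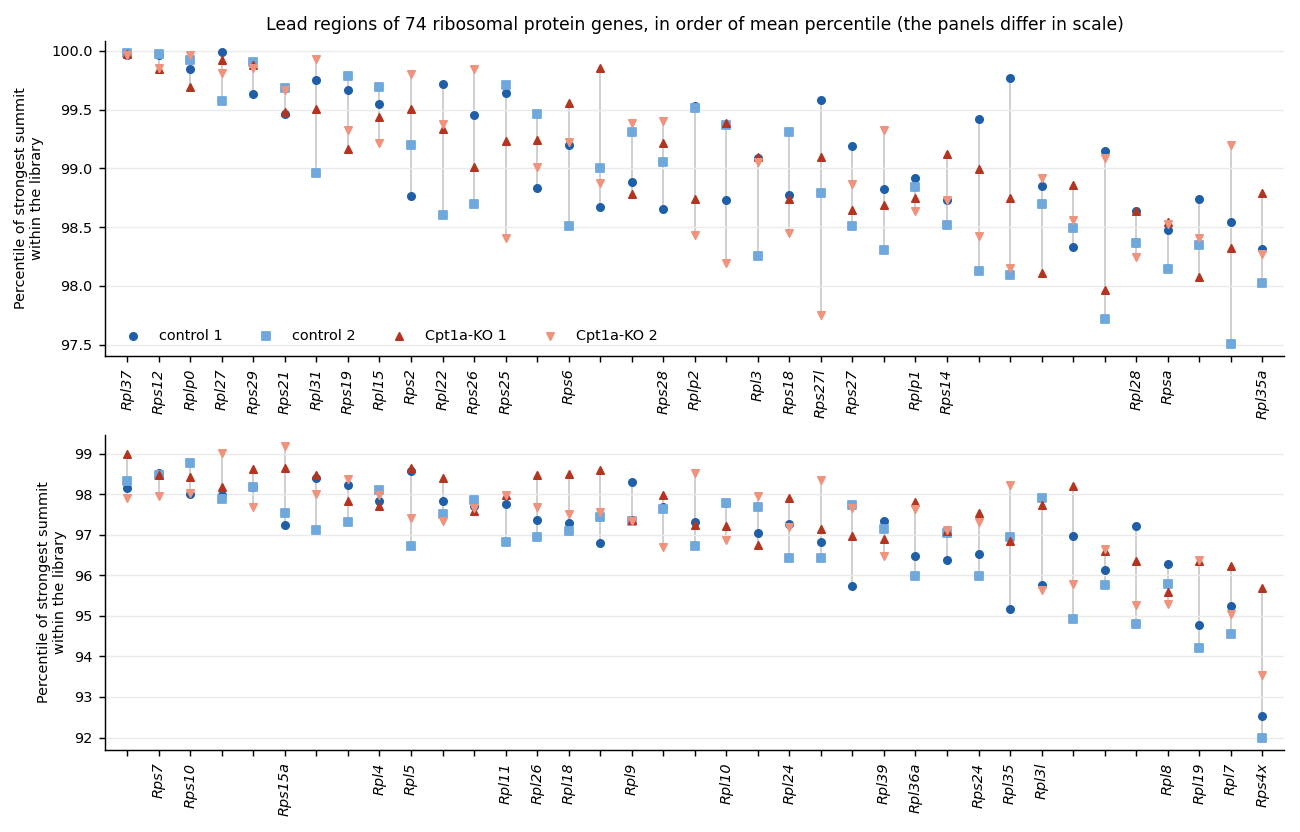
Percentile of the strongest summit within its own library for the lead regions of 74 ribosomal protein genes, in order of mean percentile, with names for the genes named in the text, a point per library (control, blue; Cpt1a-KO, red) and a line over their range. Rpl37 stood highest and Rps4x lowest, at 92.0 to 95.7, and the points of the genotypes were mixed for most genes.

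The strongest regions belonged to large-subunit, stalk and small-subunit genes alike. Rpl37 had percentiles of 99.97 and 99.99 in control and 99.98 and 99.96 in KO. Rps12 had 99.97 in both control libraries, 99.85 in KO 1 and 99.86 in KO 2. Rplp0, the base of the stalk, had 99.84 and 99.92 in control and 99.69 and 99.96 in KO. The KO values of Rps12 were both below its control values, whereas those of Rpl37 and Rplp0 overlapped. Rpl27 and Rps29, both Diamond-Blackfan anemia genes, completed the 5 strongest, with mean percentiles of 99.82 and 99.82. The weakest included Rps4x, Rpl7, Rpl19 and Rpl8. Rps4x, an X-linked small-subunit gene, had 92.5 and 92.0 in control and 95.7 and 93.5 in KO. Rpl7, a large-subunit gene with a high order in width, had 95.2 and 94.6 in control and 96.2 and 95.1 in KO. The order of the genes was broadly kept between libraries, with a Spearman correlation over the 78 genes of 0.857 between the control libraries, 0.794 between the KO libraries and 0.79 to 0.86 across genotypes. These correlations describe regions that share a library and a measure, and the small steps between neighbours in the order were within the range of a gene over its libraries.

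The standard small-subunit genes (n = 30) had a median mean percentile of 98.7 and the large-subunit genes (n = 46) of 97.9. Ribosomal protein genes that carry another type of name (Fau, Rps3a1, Rpl22l1, Rpl7l1 and Rpl36al) had lead regions in all 4 libraries for 5 of 5, with a median of 98.5. Mitochondrial ribosomal protein genes, whose proteins build a separate ribosome, had them for 78 of 78, with a median of 97.4. Genes of ribosome biogenesis had them for 36 of 36, with a median of 97.8 and a range from 90.3 for Nop10, a box H/ACA protein, to 99.9 for Ncl, the nucleolar protein nucleolin. Translation factors and other genes with TOP mRNAs had them for 14 of 14, with a median of 98.8. These lists lay close to the ribosomal protein genes, and no test of the differences was made.

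Most lead regions lay over the listed start of the gene. Of 58 genes with both a listed start and a lead region, 55 had the start inside it, and Rpl18, Rpl4 and Rpl3l did not. The strongest summit of these 55 genes was at a median of 42.5 bp before the listed start. It was within 100 bp of the start for 42 genes and before it or on it for 41. The summit of Rps6, for example, was at 1, −5, 4 and 4 bp from the start in control 1, control 2, KO 1 and KO 2, and that of Rpl37 was at −58, −63, −59 and −60 bp. For 41 of the 55 genes the 4 libraries placed it within 50 bp of each other. Only Rps25, a small-subunit gene, had summits more than 200 bp apart: they were at −363 and −361 bp in control, −358 bp in KO 1 and −102 bp in KO 2. The position in KO 2 stood apart from the other 3 libraries.

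**Figure D2:**
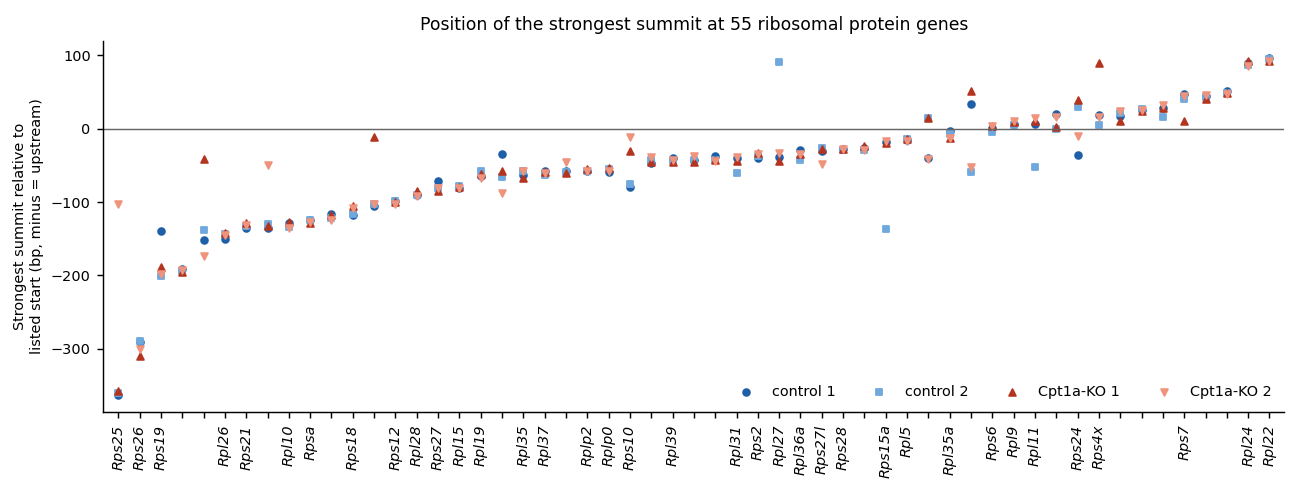
Distance of the strongest summit of each library from the listed start (bp, negative upstream) for 55 ribosomal protein genes, in order of the median, with names for the genes named in the text and a point per library (control, blue; Cpt1a-KO, red). The points of a gene coincided for most genes, between −359.5 bp for Rps25 and 94 bp for Rpl22 by median, and single libraries stood off at Rps25, Rpl27 and Rps15a.

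The lead regions of 15 genes also held the listed start of another gene, so the signal cannot be assigned to one of them. Examples were Rps2 with Snhg9, Rps28 with Ndufa7, Rps18 with Vps52 and Rpl9 with Lias. For Rpl4, the lead region lay beyond the gene over the start of Snapc5. The region over the listed start of Rpl4 had percentiles of 96.2 and 96.9 in control and 97.0 and 96.8 in KO. For Rpl18 the lead region held a start of Sphk2, and the region over the listed start of Rpl18 had 96.5 and 96.8 in control and 96.7 and 96.3 in KO. The genotypes overlapped in both of these regions.

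In the 55 promoters whose listed start lay in the lead region, a C followed by at least 4 pyrimidines began the listed transcript of 12 (21.8%), against 203 of 9116 (2.23%) protein-coding promoters chosen in the same way and 0 of 66 for mitochondrial ribosomal protein genes. The other 43 listed starts, those of Rpl19 and Rpl37 printed above among them, did not begin with such a run. Only the listed base was tried, so a tract at a start some bases away would be missed. These genes therefore cannot be said to lack it. The motif CCGGAAG occurred in 23 of the 55 windows of 300 bases (41.8%), against 19.8% of the 9116 and 34.8% of the mitochondrial ribosomal protein genes. CTTTCCG occurred in 9 (16.4% against 5.27%) and AAGATGG in 8 (14.5% against 7.44%). GGGCGG occurred in 33 (60.0% against 68.9%), CACGTG in 5 (9.09% against 10.9%) and TATAAA in 5 (9.09% against 6.32%). The windows had a median GC content of 58.0%, against 61.7%. Promoters with and without CCGGAAG had median percentiles of 98.69 and 98.35, and those with and without the tract 98.64 and 98.35. A match describes letters and not a bound site.

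The comparison of genotypes asks whether loss of Cpt1a goes with a shift in the accessibility of these promoters. Most of these genes overlapped between genotypes, and the shares that ranked higher or lower lay near those of other regions. Both KO libraries ranked a lead region above both control libraries for 20 of 78 genes (25.6%), against 22.0% of all regions held by 4 libraries and 26.2% of the lead regions of protein-coding genes. They ranked it below both control libraries for 11 genes (14.1%), against 15.4% and 10.4%. For the other 47 genes the genotypes overlapped. The median difference in percentile (KO minus control) was 0.203 points, against 0.270 for lead regions of protein-coding genes and 0.151 for the 8604 regions with a mean percentile of at least 95. The spread of the library medians within a genotype had an SD of 0.213 points, so the shift was no larger than this spread. With 2 libraries against 2, an exact two-sided permutation test cannot give a p below 0.33.

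**Figure D3:**
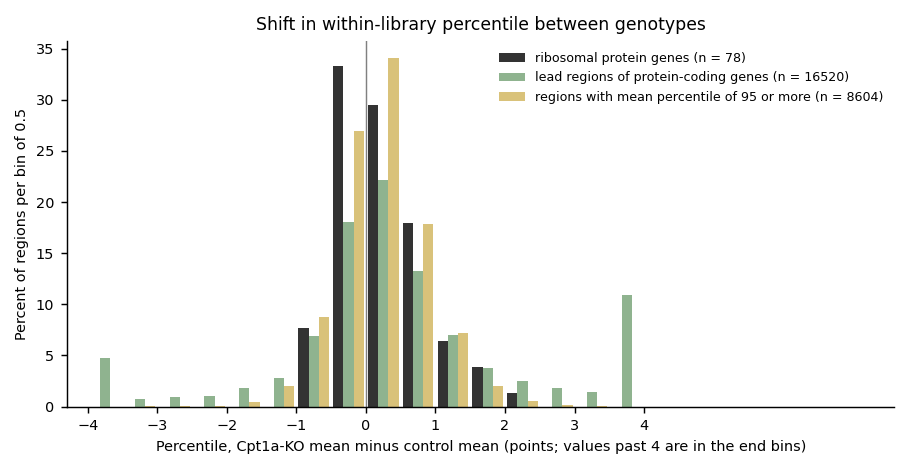
Percent of regions in each bin of 0.5 points of the percentile difference (KO mean minus control mean) for 78 ribosomal protein genes (black), 16520 lead regions of protein-coding genes (green) and 8604 regions with a mean percentile of at least 95 (yellow), with values past 4 points in the end bins. The ribosomal protein genes lay between −0.936 and 2.35 points, close to zero like the other strong regions.

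The direction depended on how the peaks were ranked. When only summits whose −log10 q reached 5 were kept, 7 genes (8.97%) ranked higher in both KO libraries and 18 (23.1%) lower. The median difference was then −0.387. All regions moved the same way under that threshold, with 7.29% higher, 32.2% lower and a median of −3.23. Lead regions of protein-coding genes had 7.76% higher and 27.7% lower. Ranked by the authors' fold, 29 genes (37.2%) were higher and 7 (8.97%) lower. The shares were 22.2% and 15.1% of all regions, and 27.5% and 10.7% of lead regions of protein-coding genes. Across these rankings and that of the 100000 strongest summits of each library, 7 genes were higher in every one (Rps2, Rps15a, Rps24, Rpl19 and Rpl36a among them) and 6 were lower (Rps12, Rpl10, Rpl15, Rpl39, Rplp1 and Rplp2). The rankings reuse the same peak lists, and the share of other regions that kept a direction in all of them was not counted. Rpl28 was the 1 gene that turned its direction between rankings.

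Among the genes with large differences upward, Rps4x moved by 2.35 points (values above). Its fold was 14.1 and 14.9 in control and 18.5 and 13.8 in KO, so that the fold values themselves overlapped. The median fold over lead regions of protein-coding genes was 13.85 and 13.52 in control and 13.83 and 12.76 in KO. Raw folds thus ran lower in KO 2 than in the other libraries. In the ranking by fold within each library, both KO libraries of Rps4x were above both controls, and the genotypes overlapped when the −log10 q had to reach 5. Rpl19 had percentiles of 94.8 and 94.2 in control and 96.3 and 96.4 in KO, and folds of 9.98 and 9.94 against 12.2 and 12.2. Both KO libraries of Rpl19 were above both controls on each scale. Rps15a had percentiles of 97.2 and 97.5 in control and 98.7 and 99.2 in KO. Rpl36a, an X-linked gene whose protein sits at the exit site of tRNA, had 96.5 and 96.0 in control and 97.8 and 97.6 in KO. In both Rps15a and Rpl36a, the lower KO library was above the higher control.

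Downward, the differences were smaller in percentile points, which do not scale with the fold near 100. Rps12, for example, moved by −0.117 points, while its fold was 29.0 and 28.5 in control and 24.1 and 22.6 in KO. Rplp2 had percentiles of 99.5 and 99.5 in control and 98.7 and 98.4 in KO, a difference of −0.936 points. Rps25, needed for translation from some internal ribosome entry sites, had 99.6 and 99.7 in control and 99.2 and 98.4 in KO. Rpl10, an X-linked gene for a late-joining protein of the large subunit, had 97.8 and 97.8 in control and 97.2 and 96.9 in KO. Rplp2, Rps25 and Rpl10 were each lower in both KO libraries. Rpl8, whose protein lies near the peptidyl transferase center, had 96.3 and 95.8 in control and 95.6 and 95.3 in KO. Rpl39, an X-linked gene whose protein lines the exit tunnel, had 97.3 and 97.1 in control and 96.9 and 96.5 in KO. The gap between the genotypes was narrow for both, and in the ranking by the authors' fold the genotypes of Rpl8 and Rps25 overlapped, although the fold values themselves did not.

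All 4 X-linked genes separated by genotype, Rps4x and Rpl36a upward and Rpl10 and Rpl39 downward. Of 510 lead regions of protein-coding genes on X, 26.3% ranked higher in both KO libraries and 8.43% lower. The 4 lists held 59 to 68 summits on Y. The sex of the mice behind a library was not given, and its part in these differences was not tested.

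The Diamond-Blackfan anemia genes were spread over both directions. Of 17 genes, 5 ranked higher in both KO libraries (Rps24, Rps28, Rpl11, Rpl18 and Rpl26), 2 lower (Rps19 and Rpl15), and 10 overlapped (Rps7, Rps10, Rps26, Rps27, Rps29, Rpl5, Rpl27, Rpl31, Rpl35 and Rpl35a). The shares higher and lower, 29.4% and 11.8%, lay near the 26.2% and 10.4% of lead regions of all protein-coding genes. The mean percentiles of the 17 genes ran from 96.8 to 99.8. Rps19, the gene most often mutated in the disease, had 99.7 and 99.8 in control and 99.2 and 99.3 in KO. Rps24 had 96.5 and 96.0 in control and 97.5 and 97.3 in KO. Rpl11, whose protein binds Mdm2 together with that of Rpl5, had 97.8 and 96.8 in control and 98.0 and 98.0 in KO. The KO libraries were below the controls for Rps19 and above them for Rps24 and Rpl11. Rps24 kept its direction in every ranking. The genotypes overlapped for Rps19 in the ranking by fold, and for Rpl11 when the −log10 q had to reach 5. Rpl5 overlapped, with 98.6 and 96.7 in control and 98.6 and 97.4 in KO. Rpl18 was counted by a region over a Sphk2 start, and its own start overlapped, as given above.

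Other genes taken by name were higher, lower or overlapping. Rps14, whose loss contributes to the anemia of the myelodysplastic syndrome with a deletion of 5q, had 98.7 and 98.5 in control and 99.1 and 98.7 in KO, which overlapped. Rps6 had 99.2 and 98.5 in control and 99.6 and 99.2 in KO, above the controls by a narrow gap that did not hold in the ranking by fold. Rpsa, which is mutated in congenital asplenia, had 98.5 and 98.1 in control and 98.5 and 98.5 in KO. Of the stalk genes, Rplp1 and Rplp2 were lower in both KO libraries and Rplp0 overlapped. Rplp1 had 98.9 and 98.8 in control and 98.7 and 98.6 in KO. Genes that host snoRNA genes in their introns (n = 29) had 5 higher (17.2%) and 5 lower (17.2%), and the 47 standard genes without one had 15 higher (31.9%) and 6 lower (12.8%), against 26.2% and 10.4% of the lead regions of all protein-coding genes. The difference between these lists was not tested.

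Against these genes, mitochondrial ribosomal protein genes had 24.4% higher in both KO libraries and 12.8% lower. Genes of ribosome biogenesis had 12 of 36 higher (33.3%) and 2 lower (5.56%). The list with TOP mRNAs had 5 of 14 higher (35.7%) and 2 lower (14.3%). For lead regions of all protein-coding genes the shares were 26.2% and 10.4%, and the differences were not tested. Among the biogenesis genes, Pes1, of the large-subunit assembly pathway, had 96.3 and 96.1 in control and 97.2 and 97.2 in KO, and Gnl3, the nucleolar GTPase nucleostemin, had 98.95 and 98.57 in control and 98.28 and 97.19 in KO. Those groups did not overlap in either gene, and the genes are examples of each direction that do not reflect the counts.

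The fold over background, the authors' ratio of signal at the summit to the local background, was tested with limma on the log2 scale after quantile normalization across the 80271 regions. No region was called at an adjusted p (Benjamini-Hochberg) of 0.05 in either direction (0 of 80271, 0.0%), and 6123 (7.63%) had an unadjusted p under that level. Among the 78 genes, 5 (6.41%) had an unadjusted p under it, a share close to that of all regions. Named after their values were seen, they were Rpl19 (0.38 on the log2 scale, SE 0.17, KO minus control), Rpl36a (0.30, SE 0.12), Rps15a (0.27, SE 0.12), Rps12 (−0.26, SE 0.083) and Rpl39 (−0.27, SE 0.11). The lowest adjusted p of any of the 78 in limma's test was 0.516. The median estimate was 0.033 on the log2 scale, and the estimates ran from −0.27 to 0.38, with a median SE of 0.12. In data simulated over all 80271 regions (median SD 0.258), the same fit called 1 of 200 planted shifts of 0.5 on the log2 scale. It called 39 of 200 shifts of 1. These shifts were planted among all regions, where the spread was larger than at these genes. With 2 libraries against 2 the SE equals the SD, and the median SE of the 78 genes was 0.12. The counts therefore do not give the share of such shifts that would be called at these genes. The estimates of the 78 genes were smaller than either shift, and the lack of a call does not show that these genes were unchanged. The study, which compared reads with DiffBind and edgeR, reported peaks gained and peaks lost in the KO. The 0 calls here come from another measure and do not show that accessibility was alike in the genotypes.

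**Figure D4:**
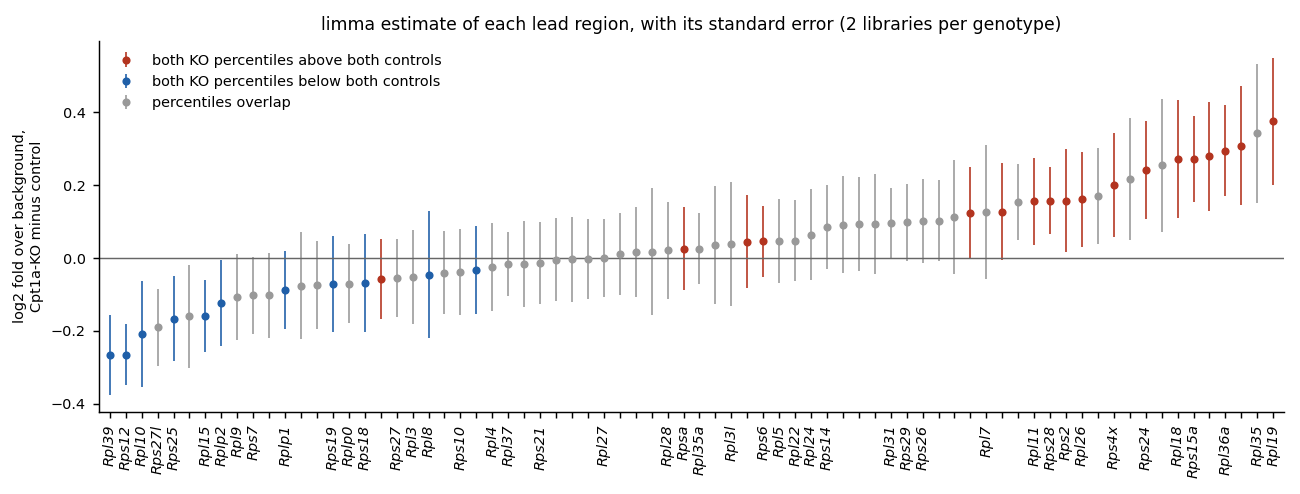
limma estimate of the difference in log2 fold over background (Cpt1a-KO minus control) for the lead regions of 74 ribosomal protein genes, in order of size, with names for the genes named in the text and bars of 1 standard error, from 2 libraries per genotype. Red and blue mark genes whose KO percentiles were both above or both below the controls. The estimates ran from −0.27 for Rpl39 to 0.38 for Rpl19.

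Lead regions were about as wide as those of other genes, and narrower in the KO libraries, as regions were in general. The width is the number of bases of a region that the intervals of a library cover. Its median over the 78 genes was 900 bp in control 1, 897.5 bp in control 2, 770 bp in KO 1 and 814 bp in KO 2. For lead regions of protein-coding genes it was 878, 869, 770 and 795 bp, and for all regions held by 4 libraries 396, 382, 301 and 326 bp. The KO medians were below the control medians in each of the 3 sets. The median log2 ratio of KO to control width was −0.14 for the 78 genes, −0.14 for lead regions of protein-coding genes and −0.20 for all regions. Both KO libraries were narrower for 32 of 78 genes (41.0%), against 35.8% of all regions and 41.5% of protein-coding lead regions. They were wider for 4 genes (5.13%), against 6.85% and 4.9%. The intervals of the KO lists covered fewer bases as a whole, so a narrowing of these regions and a difference between the lists cannot be told apart.

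**Figure D5:**
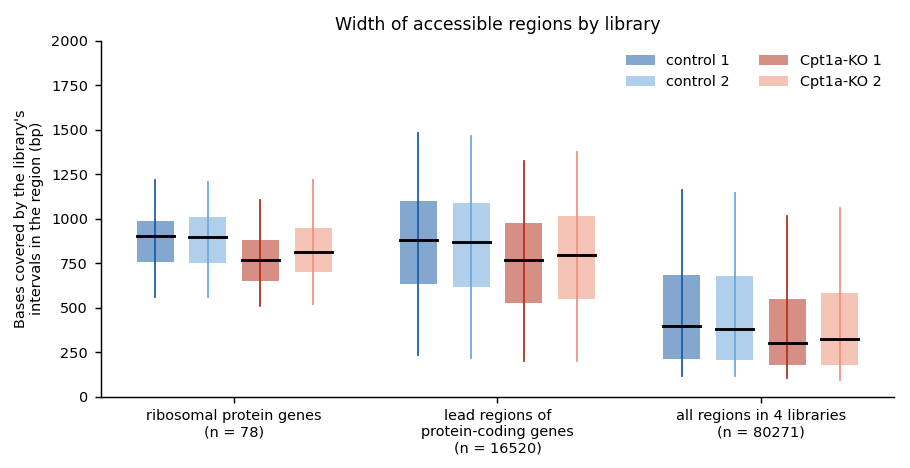
Width (bp covered by a library's intervals) of the lead regions of 78 ribosomal protein genes, of 16520 protein-coding genes and of all 80271 regions, by library, as the median (black line), the quartiles (box) and the 5th to 95th percentile (line). In each set the median of both KO libraries was below that of both control libraries, for the ribosomal protein genes at 770 and 814 bp against 900 and 897.5 bp.

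The widest lead regions were those of Rpl7, with 1874 and 1738 bp in control and 1652 and 1849 bp in KO, then of Rpl3l (over Msrb1) and of Rps29, with 1280 and 1223 bp in control and 1234 and 1405 bp in KO. Rpl18 and Rpl28 were among the narrowest. Rpl28, a large-subunit gene, had 588 and 542 bp in control and 404 and 439 bp in KO, so that both KO libraries were narrower. After quantile normalization limma called no region wider or narrower in either genotype (0 of 80271, 0.0%), with 5183 regions (6.46%) at an unadjusted p under 0.05. Among the 78 genes, 3 (3.85%) were at that level, and the lowest adjusted p in limma's test was 0.773. They were Rpl39, Rps29 and Rps21, each with a positive estimate and named after its value was seen. The normalization gives the libraries the same distribution of widths, so it removes the general narrowing in the KO lists. The median estimate of the 78 genes was then 0.065 on the log2 scale. A positive estimate is thus relative to other regions, and the widths of Rps29 overlapped between genotypes.

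Beside the lead regions, these genes overlapped others of varied strength. In all they overlapped 138 regions, 109 of them in all 4 libraries, 2 in 3, 6 in 2 and 21 in 1. A single region for the gene was found at 39 genes and 2 or more at 39. Of 117 regions in 2 or more libraries, 1 (0.855%) was held by both control libraries and neither KO library, against 6.05% of the 137553 such regions in the genome. It lay upstream of the start of Rps4x (X, 102189667 to 102190033), at percentiles of 2.38 and 14.8. Another, 1 of 117 (0.855%, against 3.47%), was held by both KO libraries alone. It lay inside Rpl35 (chromosome 2, 39004544 to 39004636), at percentiles of 56.0 and 57.7. Both were far weaker than the lead region of the same gene. Of the 117 regions, 78 were lead regions, each chosen as the strongest of its gene and held by all 4 libraries. The low shares therefore follow in part from that choice and cannot be read as a depletion against the genome. Of the secondary regions held by all 4 libraries, 3 of 32 (9.38%) ranked higher in both KO libraries and 3 (9.38%) lower, against 22.0% and 15.4% of all regions. The region inside Rpl24, a large-subunit gene, had 58.7 and 64.2 in control and 81.8 and 82.0 in KO, and was chosen for mention after its values were seen. Pseudogenes named after these genes, many of which nearly match the parent's exons, had a region in all 4 libraries for 22 of 317 and none for 231. How reads that fit several places were treated was not given in the sources used here, which bears on regions within exons more than on promoters.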

How the data were processed

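ATAC-Seq was done on sorted bone marrow cells of 2 control and 2 Cpt1a-KO libraries. Per the submitters' processing notes the build was mm10 and the tools were Bowtie2 and MACS2 (versions not given). The authors called peaks on each library and deposited lists that give a fold (the ratio of signal to local background) for each summit, with its p-value and q-value deposited as −log10 p and −log10 q. No read counts were used here, so depth and the precision it gives are unknown. The score column of the lists, a capped multiple of −log10 p, was not used.

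The members and lists were chosen with earlier results of these data known. Genes came from RefSeq (GRCm38.p6). Intervals on the autosomes and X were merged at 1 bp (Python 3.11.15, numpy 2.4.6, pandas 2.3.3). Log2 fold and log2 width of regions held by 4 libraries were quantile normalized and fitted with limma 3.58.1 (R 4.3.3), with Benjamini-Hochberg adjustment over 80271 regions, and the script was tested on simulated data. DiffBind and edgeR, with which the study reported peaks gained and lost in the KO, need reads and were not applied. Genes named were the 5 strongest and weakest, the 5 largest non-overlapping differences in each direction, the 3 widest and narrowest, those with a missing lead region or a region of one genotype, any called by limma (none was), and disease genes, stalk genes, Rps6, Rpsa and paralogs by name. Some genes that these rules cover are not reported here, and lists are counted without them where their genes are named. Alternatives were a −log10 q reaching 5, the 100000 strongest summits, flanks of 0 and 5000 bp, ranking by fold, a covered share of 0.5, no normalization, −log10 p as strength (pseudocount 1), a replicate block and leaving out each library.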

Additional observations from a re-analysis of the deposited data

How the results depend on the processing

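The number of genes with a lead region in all libraries was 78 under each alternative that recomputed it (in all 3 left where 1 library was left out), except 79 with 5000 bp. Under the alternatives fitted with limma, none of these genes was called in strength or width, including the replicate block (0 stronger, 0 weaker, 0 wider and 0 narrower). Over all regions tested, that block gave 18 stronger and 36 weaker, strength from −log10 p gave 1 stronger, and the other fits gave 0. The genotypes shared replicate numbers, and the labels did not say whether same-numbered libraries were paired. Deviations of same-numbered libraries had a correlation of 0.00466 across regions, which cannot show how the libraries were prepared. The region only in control (1) became 0 when the −log10 q had to reach 5, with the 100000 strongest summits and without a flank, 8 with 5000 bp and 4 at a covered share of 0.5. The region only in KO (1) became 0 at that q and 2 with 5000 bp. Genes higher in both KO libraries (20) fell to 7 and genes lower (11) rose to 18 at that q, and those lower numbered 7 in the ranking by fold. The median percentile difference (0.203) was −0.387 at that q and 0.593 with the 100000 strongest summits, beside medians of −3.23 and 0.981 over all regions. When each library was left out in turn, fewer libraries had to separate, so counts rose by construction: 2 to 12 regions only in control, 1 to 6 only in KO, 27 to 42 genes higher (42 without control 1), and 17 to 23 lower. The median percentile difference then ran from 0.0625 (without control 2) to 0.321, and the median log2 width ratio (−0.14) from −0.18 without KO 2 to −0.072 without KO 1. Depth cannot be read from the lists, which limits what a missing peak can show.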
